A study of Macaca mulatta with 5 samples.

Results

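The major histocompatibility complex (MHC) interval of the rhesus macaque was taken as the stretch of chromosome 4 from 29500000 to 33000000 (rheMac2), which lies beside GRM4 and matches the human MHC by synteny. Genes were counted as members when they had a gene identifier and a transcript lying wholly within these bounds, and each gene was represented by the transcript with the highest RPKM sum over the 5 files. The rule used position and no comparison of tissues, and it gave 152 of 28633 genes (0.531%). The values came from strand-specific poly(A)-positive RNA-Seq of cerebellum, kidney, lung, heart and spleen of male animals, untreated as far as the labels say, with 1 library per tissue. The first 4 tissues are described as coming from the same animal, while the animal that gave the spleen and the ages are not stated in the sources used here, so that tissue and animal cannot be told apart in any comparison with spleen. The libraries held 81517974, 48306898, 77785104, 63322572 and 67110396 properly mapped reads in that order, and 3 reads on 1 kb of exon corresponded to 0.0368, 0.0621, 0.0386, 0.0474 and 0.0447 RPKM (a read number divided by the length of the exons and by the depth of the library).

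The MHC holds genes of several kinds side by side. Class II molecules are pairs of membrane proteins that show peptides from taken-up material to helper T cells and are made mainly by B cells, dendritic cells and macrophages, whereas class I molecules show peptides from inside the cell and are made by most nucleated cells. The immunoproteasome cuts these peptides. The class III stretch between the class I and class II genes carries complement components, cytokines of the tumor necrosis factor family and many genes with no role in immunity, and further genes of general cell function flank the class II genes.

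A symbol was paired with the identifier of 91 of the 152 genes, and the other 61 are described by identifier and position only. Of 20 class I genes listed, 1 was matched to a member, so class I is barely described here. Each tissue carried its own markers: the 4 cerebellar markers found summed to 420 RPKM in cerebellum and 3 of them were highest there (CALB1 was highest in kidney, at 488 RPKM), the 4 of kidney summed to 1725 RPKM in kidney, the 5 of lung to 7527 RPKM in lung and the 2 of heart to 203 RPKM in heart. The splenic stromal gene TLX1 had 27.6 RPKM in spleen and at most 0.011 RPKM elsewhere. Since each tissue had 1 library, replicate error is unknown and tissues were compared without a test. Ranges in brackets are exact Poisson 95% intervals of the read numbers, which cover counting error only.

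The interval was expressed most broadly in spleen and lung. At least 1 RPKM, the level called detected, was reached by 102 of the 152 genes in spleen (67.1%, against 43.7% of all genes), by 98 in lung (64.5% against 45.4%), by 87 in kidney (57.2% against 41.8%), by 82 in heart (53.9% against 32.5%) and by 79 in cerebellum (52.0% against 39.9%). The RPKM values of the members summed to 3449 in spleen, 2911 in lung, 705 in heart, 1511 in kidney and 1466 in cerebellum, which was 1.41%, 1.24%, 0.422%, 0.682% and 0.871% of the sum over all genes. The other scalings used below multiplied heart values by 1.75 to 2.04 and those of no other tissue by more than 1.07. The low RPKM sum of heart thus depends in part on the scaling. Over the 110 members that reached 1 RPKM in at least 1 of the 5 tissues, the median level was 9.48 RPKM in spleen and 8.96 RPKM in lung, compared with 5.16 and 5.09 RPKM over the 15688 genes of the whole table that did so. In cerebellum the medians over the same genes were 3.29 RPKM in the interval and 3.32 RPKM in the whole table.

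In total 110 members (72.4%, against 54.8% of all genes) reached 1 RPKM in some tissue, 69 in every tissue and 42 in none. Of these 42, 19 had no read in any tissue. Their group included POU5F1, a transcription factor of pluripotent cells with no read in any of the 5 libraries, CDSN, which makes a protein of the outer skin layer, MUCL3, and the tripartite motif genes TRIM10 and TRIM15. Of the 110 genes, 53 had their highest level in spleen (48.2%, against 34.2% of all detected genes), 24 in lung (21.8% against 21.6%), 19 in cerebellum (17.3% against 20.1%), 13 in kidney (11.8% against 18.7%) and 1 in heart (0.909% against 5.40%), the mitochondrial ribosomal protein gene MRPS18B with 37.3 RPKM. These numbers depended on the scaling. After upper-quartile, median-of-ratios and TMM (trimmed mean of M values) scaling, the highest level was in heart for 8, 18 and 15 members, in lung for 22, 14 and 16, and in spleen for 40, 37 and 40. The matching shares over all genes were not computed under these scalings. Whether spleen remains above its all-gene share after them was therefore not tested.

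**Figure D1:**
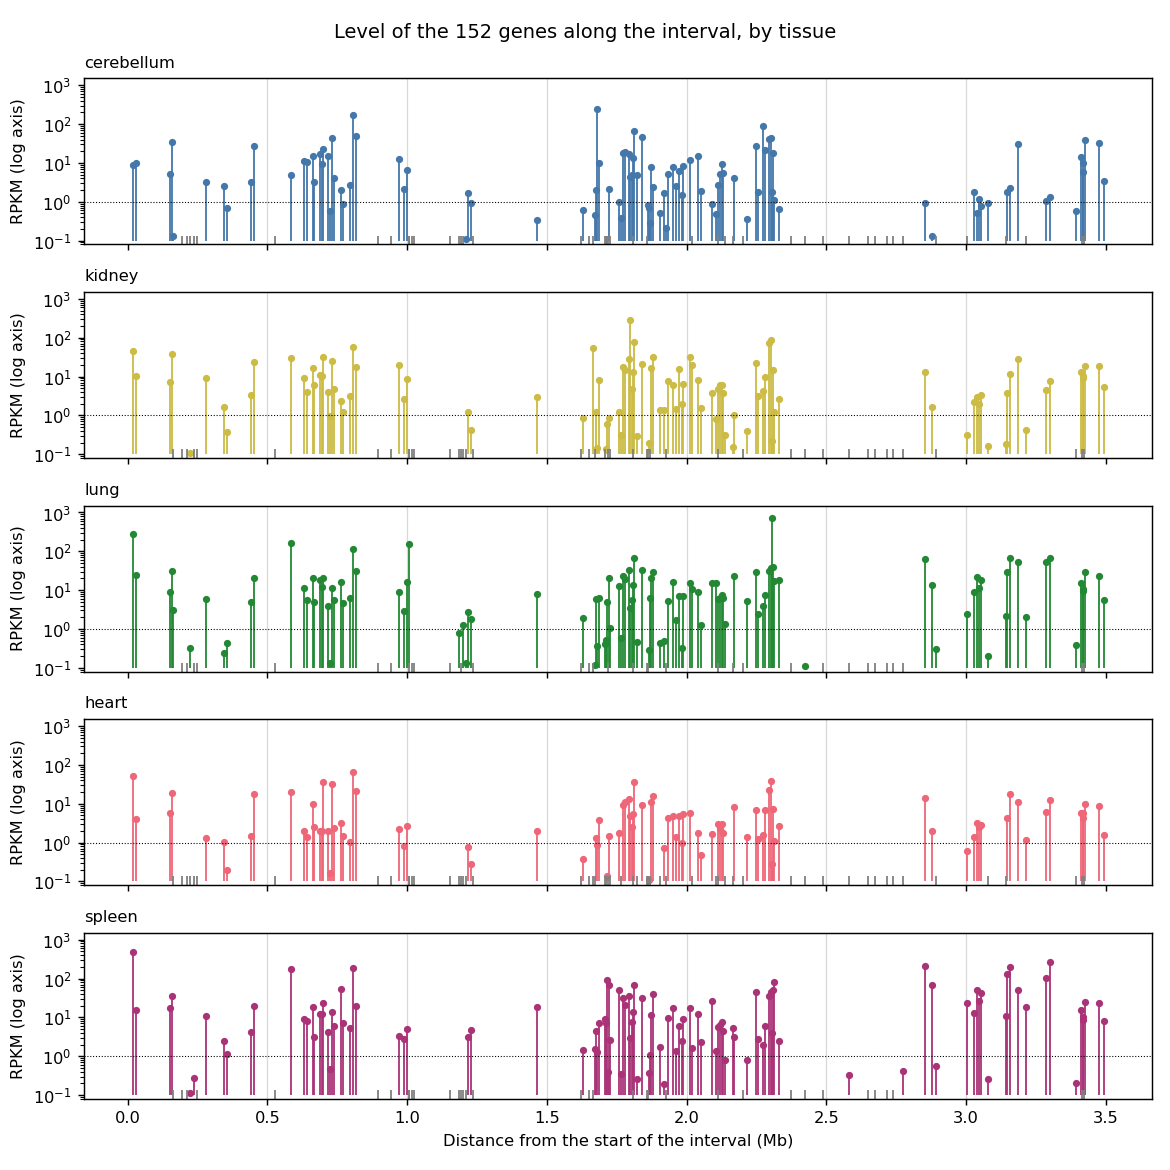
RPKM (log axis) of each of the 152 genes against its distance from the start of the interval, 1 panel per tissue; each stem is a gene, grey ticks at the foot mark genes below 0.1 RPKM, the dotted line is 1 RPKM, and vertical lines bound windows of 500 kb. The last window is filled with tall stems in spleen (1034 RPKM in sum) and lung (430 RPKM) and has a sum of 150 RPKM in cerebellum, where its tall stems are the genes that flank class II.

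Levels were uneven along the chromosome. The last window of 500 kb, from 32500001 to 33000000, held the class II, immunoproteasome and flanking genes. Its 22 members summed to 1034 RPKM in spleen, 430 RPKM in lung and 150 RPKM in cerebellum. Much of the spleen sum came from members without a symbol. Those at 32800222 to 32800816 and at 32655372 to 32660286 had 271 and 204 RPKM in spleen and 68.3 and 65.6 RPKM in lung. The window before it, from 32000001 to 32500000, held 9 members with 273 RPKM in spleen, 77.0 RPKM in lung and 1.05 RPKM in cerebellum. Most of this came from MAMU-DRB1, described below with its overlaps. Window 3, from 30500001 to 31000000, was also nearly silent in cerebellum, at 3.08 RPKM over 13 genes, and carried 26.7 RPKM in spleen and 169 RPKM in lung. Of the 169 RPKM, 154 RPKM came from ENSMMUG00000018614. In windows 1, 2 and 4 the cerebellar sums were 94.2, 409 and 503 RPKM, and those of spleen were 602, 578 and 562 RPKM. The 602 RPKM of spleen in window 1 included 494 RPKM from ENSMMUG00000029875. Of the 503 RPKM, 247 RPKM came from the transcript that represents DDX39B, whose longest transcript had 45.0 RPKM in cerebellum. Window 5, from 31500001 to 32000000, was highest in lung, with 1028 RPKM against 373 RPKM in spleen and 306 RPKM in cerebellum, and 719 RPKM of the lung sum was the gene AGER.

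The comparison of spleen with cerebellum set a lymphoid organ against a part of the brain. Of 104 members with at least 1 RPKM in either tissue, 30 were at least 4-fold higher in spleen (28.8%, against 22.8% of 14082 genes) and 4 at least 4-fold lower (3.85%, against 12.6%). The remaining 70 lay within 4-fold. The median log2 ratio was 0.71 in the interval and 0.59 over all genes, and 76 of the 104 ratios were above 1. The Poisson intervals of both tissues were apart for all 34 of these genes, and 6 of the 34 had fewer than 3 reads in cerebellum, whose value was then set to that of 3 reads. Spleen genes thus made up 88.2% of the members past 4-fold, against 64.3% over all genes. This split depended on the scaling: with the upper quartile, median-of-ratios and TMM scalings the members gave 29 higher and 8 lower (78.4% higher), while the all-gene share fell to 53.3%, 49.6% and 51.7%. These scalings moved every log2 ratio of spleen over cerebellum by -0.46, -0.62 and -0.53. After them 28.4%, 29.0% and 28.7% of members were 4-fold higher in spleen, against 17.8%, 16.5% and 17.2% of all genes.

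Lung gave a similar picture. Of 103 members, 36 were at least 4-fold higher in lung than in cerebellum (35.0%, against 23.7% of 14334 genes), 5 at least 4-fold lower (4.85%, against 10.7%) and 62 within 4-fold. The median log2 ratio was 0.71, against 0.53 over all genes. The intervals were apart for 40 of the 41 genes past 4-fold, and 8 of the 41 had fewer than 3 reads in cerebellum. Lung genes made up 87.8% of the members past 4-fold (69.0% over all genes). With the 3 other scalings, which moved the ratios by -0.32, -0.58 and -0.48, there were 33, 30 and 30 higher and 8, 9 and 9 lower, a share of 80.5%, 76.9% and 76.9% (62.0%, 56.2% and 58.6% over all genes). Both comparisons used the same cerebellum library, so their calls are not independent.

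Spleen was therefore also set directly against lung. Of 107 members, 15 were at least 4-fold higher in spleen (14.0%, against 6.29% of 13953 genes), 10 at least 4-fold higher in lung (9.35%, against 10.4%) and 82 within 4-fold. The median log2 ratio was 0.19, against 0.13 over all genes. The intervals were apart for all 25 genes past 4-fold. Spleen genes made up 60.0% of them (37.6% over all genes), and 54.5%, 60.9% and 60.9% under the upper quartile, median-of-ratios and TMM scalings.

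**Figure D2:**
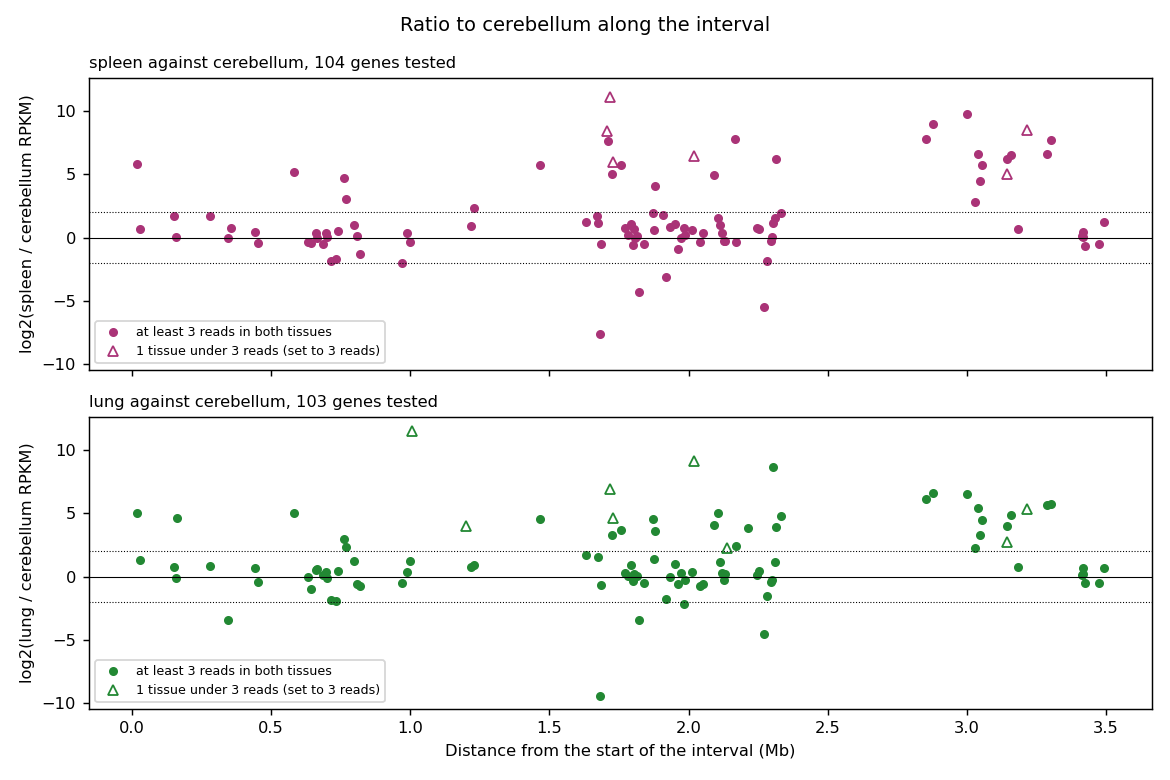
Log2 ratio of RPKM to cerebellum against distance from the start of the interval, for the 104 genes tested in spleen (top) and the 103 tested in lung (bottom); dotted lines mark 4-fold, and open triangles are genes with fewer than 3 reads in one tissue, set to 3 reads. Toward the right end, where the class II genes lie, 11 of 18 tested genes of the last window are at least 4-fold higher in spleen and 11 of 18 in lung (22.8% and 23.7% over all genes), with none lower, while most genes near the centre lie around 0.

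By position, the genes higher in spleen than in cerebellum were most numerous in the last window. There 11 of 18 genes tested were at least 4-fold higher in spleen and none lower, with a median log2 ratio of 4.76, and the same number was higher in lung, with a median of 3.02. In window 6 both tested genes were higher in either tissue, with medians of 8.40 in spleen and 6.38 in lung, and in window 3 the number was 2 of 3 in spleen and 3 of 5 in lung. In window 4, the largest by number with 41 genes, 7 of 31 were higher in spleen and 3 lower, and in window 5 there were 4 of 22 higher and 1 lower. Window 2 had 3 of 19 higher in spleen, none lower and a median of 0.07. Over all genes, 22.8% were at least 4-fold higher in spleen than in cerebellum and 12.6% lower, and 23.7% were higher in lung. The shares higher in spleen in windows 2, 4 and 5 were not above that of all genes. Against cerebellum, 9 of 23 were higher in lung in window 5 and 1 lower. In window 4 there were 6 of 27 higher in lung and 3 lower, and in window 2 there were 3 of 19 and none. The share higher in lung was thus above that of all genes in window 5 and not above it in windows 2 and 4.

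Class II genes stood highest in spleen and next in lung. In deposited RPKM, 4 of the 5 were lowest in cerebellum, while MAMU-DOB was lowest in heart. The other scalings multiplied heart values by 1.75 to 2.04 and cerebellum values by 1.03 to 1.07. Under each of them MAMU-DOB would be higher in heart than in cerebellum. The class II list has 25 genes, of which 5 could be named in the interval. All 5 were at least 4-fold higher than in cerebellum both in spleen (22.8% over all genes) and in lung (23.7%). Their median log2 ratios were 6.63 and 5.35. Their summed level was 472 RPKM in spleen, 157 RPKM in lung, 27.1 RPKM in heart, 23.9 RPKM in kidney and 5.52 RPKM in cerebellum. Spleen exceeded lung by at least 4-fold for 2 of the 5, MAMU-DMB and MAMU-DOA (6.29% over all genes). The median log2 ratio of spleen over lung was 1.69.

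MAMU-DRB1 (chromosome 4, 32308739 to 32398423), a beta chain of the peptide-presenting DR molecule, had 204 RPKM in spleen (201 to 207), 63.5 RPKM in lung, 14.2 RPKM in heart, 12.9 RPKM in kidney and 0.902 RPKM in cerebellum (0.740 to 1.09). Spleen stood 227-fold and lung 70.4-fold above cerebellum. This locus spans 10 transcript models and overlaps 2 other members, which had 67.6, 13.2 and 0.133 RPKM and 0.548, 0.304 and 0 RPKM in spleen, lung and cerebellum. DRB genes are near-identical copies of each other and vary between animals, so the division of reads among them is uncertain. MAMU-DPA (32782311 to 32789938), the alpha chain of the DP molecule, had 105 RPKM in spleen, 54.4 RPKM in lung, 6.13 RPKM in heart, 4.45 RPKM in kidney and 1.06 RPKM in cerebellum. Its spleen and lung levels were 99.0-fold and 51.1-fold above cerebellum, and differed from each other by 1.94-fold.

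MAMU-DMB, MAMU-DOA and MAMU-DOB encode chains of the DM and DO molecules, which load peptides onto class II molecules or regulate the loading. MAMU-DMB (32641396 to 32647751) had 131 RPKM in spleen, 28.5 RPKM in lung, 4.22 RPKM in heart, 3.85 RPKM in kidney and 1.74 RPKM in cerebellum. Its spleen level was 4.60-fold that of lung. MAMU-DOA (32713952 to 32716406) had 18.1 RPKM in spleen, 2.01 RPKM in lung, 1.18 RPKM in heart, 0.414 RPKM in kidney and no read in cerebellum, so that spleen was at least 369-fold and lung at least 40.9-fold above cerebellum. The other transcript of this gene had 29 reads in spleen and also none in cerebellum. MAMU-DOB (32524254 to 32535098) was the flattest of the 5, with 13.0 RPKM in spleen, 8.80 RPKM in lung, 2.25 RPKM in kidney, 1.81 RPKM in cerebellum and 1.36 RPKM in heart. Its log2 ratio of lung over cerebellum, 2.28, fell below 4-fold under the upper quartile, median-of-ratios and TMM scalings (1.96, 1.70 and 1.80).

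The immunoproteasome subunits followed the class II genes. PSMB8 (32536973 to 32540303) had 49.3 RPKM in spleen (47.8 to 50.9), 21.2 RPKM in lung (20.2 to 22.2), 3.12 RPKM in heart, 2.94 RPKM in kidney and 0.504 RPKM in cerebellum (0.369 to 0.672). PSMB9 had 41.4, 17.9, 2.83, 3.43 and 0.781 RPKM in the same order of tissues. Both were past 4-fold in spleen (log2 ratios of 6.61 and 5.73) and in lung (5.39 and 4.52) against cerebellum, and neither differed by 4-fold between spleen and lung. The shares of all genes 4-fold above cerebellum were 22.8% in spleen and 23.7% in lung. The only complement gene of the list with a symbol in the interval was CFB (31579976 to 31601651), factor B of the alternative pathway, with 27.1 RPKM in spleen, 14.9 RPKM in lung, 3.79 RPKM in kidney, 1.65 RPKM in heart and 0.883 RPKM in cerebellum.

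Most genes that could be compared from the list for the tumor necrosis factor family and lymphocytes were higher in spleen than in cerebellum. The list had 9 members in the interval, of which 6 could be compared between spleen and cerebellum. It is broader than its name. Besides LTA, LTB, LST1 and NCR3 it holds CDSN, POU5F1, LY6G6C, TCF19 and MPIG6B, of which TCF19 and MPIG6B could be compared. Of the 6 compared, 5 were at least 4-fold higher in spleen and none lower (22.8% and 12.6% over all genes), with a median log2 ratio of 5.48. Against lung, 2 were higher in spleen and 1 lower (6.29% and 10.4% over all genes). LTB (31215419 to 31217482), lymphotoxin beta, a membrane protein that lymphocytes use in building lymphoid organs, had 92.3 RPKM in spleen (89.9 to 94.8), 4.95 RPKM in lung (4.45 to 5.50), 0.596 RPKM in kidney, 0.140 RPKM in heart and no read in cerebellum. Spleen was 18.6-fold above lung and at least 2265-fold above cerebellum, the highest ratio of spleen over cerebellum among the members. Its model overlaps that of a member without a symbol over 1528 bp, which had at most 0.392 RPKM.

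LTA (31207186 to 31209182), the soluble partner of LTB, had 838 reads (9.02 RPKM) in spleen, 43 reads (0.399 RPKM) in lung, 2 reads in kidney and none in cerebellum or heart. LST1, a gene of leukocytes, had 66.8 RPKM in spleen, 20.6 RPKM in lung, 2.08 RPKM in cerebellum, 1.51 RPKM in heart and 0.847 RPKM in kidney. NCR3 encodes an activating receptor of natural killer cells and had 2.60 RPKM in spleen, 1.07 RPKM in lung, 0.0940 RPKM in kidney and 2 reads in heart, with none in cerebellum. The fifth gene past 4-fold, TCF19, codes for a transcription factor linked to cell growth rather than a lymphocyte product, and its 4.69 RPKM in spleen against 0.947 RPKM in cerebellum (log2 ratio 2.31) fell below 4-fold under each of the 3 other scalings (1.85, 1.69 and 1.78). MPIG6B, a receptor of platelets and their precursor cells, was the member higher in lung, with 6.46 RPKM there, 1.07 RPKM in spleen and 0.276 RPKM in cerebellum.

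**Figure D3:**
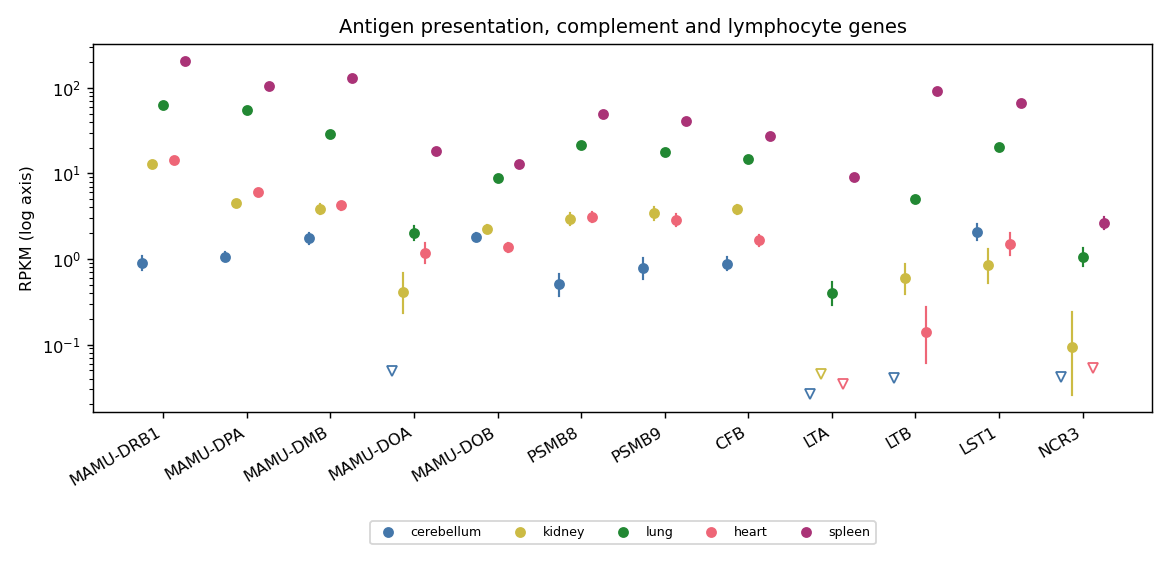
RPKM (log axis) of 12 genes of antigen presentation, complement and lymphocytes in the 5 tissues, with bars for the exact Poisson 95% interval; open triangles mark tissues with fewer than 3 reads, drawn at the value of 3 reads. Spleen is the highest tissue and lung the next for each of the 12, with cerebellum at or below 2.08 RPKM. The 12 are a choice from their lists. MPIG6B (6.46 RPKM in lung, 1.07 RPKM in spleen) and MIC1 (1.95 and 1.41 RPKM), which were higher in lung, are not drawn here.

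Markers of the cells that make these proteins were mostly higher in spleen than in lung and lower in the other tissues. Of the B cell markers, MS4A1 had 225 RPKM in spleen, 6.05 RPKM in lung, 0.132 RPKM in kidney, 0.0126 RPKM in heart and 0.00979 RPKM in cerebellum. CR2 had 138 RPKM in spleen, 1.30 RPKM in lung, 0.132 RPKM in kidney and no read in heart or cerebellum. The 3 T cell markers found of 5 (CD3E, CD3G and CD8A) summed to 83.2 RPKM in spleen, 16.5 RPKM in lung and between 0.942 and 1.31 RPKM in the other tissues, where CD3G had no read in cerebellum, kidney or heart, and all 5 macrophage markers to 255 RPKM in spleen, 105 RPKM in lung and between 8.85 and 12.3 RPKM elsewhere. Of the macrophage markers, MARCO was higher in lung (10.6 RPKM) than in spleen (2.98 RPKM). In bulk tissue a larger number of cells of a type and more RNA per cell cannot be told apart, and the part of cell makeup in the ratios above was not tested.

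Of the identifiers without a symbol, 28 could be compared between spleen and cerebellum and 30 between lung and cerebellum, and 11 and 15 were at least 4-fold higher in the first tissue, with 1 and 2 lower. Over all genes, 22.8% and 23.7% were higher and 12.6% and 10.7% lower. ENSMMUG00000029875 (29516757 to 29520226) was the most abundant of these and the second of the whole interval. It had 494 RPKM in spleen (489 to 498), 282 RPKM in lung, 50.4 RPKM in heart, 46.6 RPKM in kidney and 8.60 RPKM in cerebellum. ENSMMUG00000011290 (32497932 to 32505601), between MAMU-DRB1 and MAMU-DOB, had 23.2 RPKM in spleen, 2.36 RPKM in lung, 0.617 RPKM in heart, 0.309 RPKM in kidney and 0.0258 RPKM in cerebellum, so that spleen was 899-fold above cerebellum and 9.81-fold above lung.

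MIC1, the one named member of the class I list, encodes a stress-induced molecule related to class I and was low in all tissues, from 0.371 RPKM in heart to 1.95 RPKM in lung. HSPA1L, a heat shock protein gene with close copies nearby in other primates, had 2.62 RPKM in cerebellum and between 1.39 and 1.72 RPKM in the other tissues, a range that was within 2-fold.

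The remaining class III genes mostly lay within 4-fold between spleen, lung and cerebellum. Of 46 listed, 32 were in the interval and 31 could be compared between spleen and cerebellum, where 4 were at least 4-fold higher in spleen and 3 lower, with a median log2 ratio of 0.34 (22.8% and 12.6% over all genes, median 0.59). For lung against cerebellum 6 of 29 were higher and 2 lower (23.7% and 10.7% over all genes), with a median of 0.14 against 0.53. For spleen against lung 3 of 30 were higher in spleen and 4 higher in lung (6.29% and 10.4% over all genes). The list also holds the kidney gene APOM. The 4 higher in spleen than in cerebellum were CLIC1, SLC44A4, CYP21A2 and GPSM3. CLIC1, a chloride intracellular channel protein, had 40.6 RPKM in spleen, 32.1 RPKM in kidney, 29.1 RPKM in lung and 16.1 RPKM in heart, and stood apart in cerebellum at 2.40 RPKM. GPSM3, a regulator of G protein signalling in blood cells, had 83.1 RPKM in spleen, 17.5 RPKM in lung and between 1.12 and 1.19 RPKM in the other 3 tissues.

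CYP21A2, the steroid 21-hydroxylase of the adrenal cortex, was measured at 5.43 RPKM in spleen (719 reads, 5.04 to 5.84) and at 0.157 RPKM in kidney, with 4 reads in cerebellum, 2 in lung and none in heart. Its model (31663424 to 31666718) overlaps that of TNXB over 486 bp, and TNXB had 3.18 RPKM in spleen and 22.5 RPKM in lung. Near-identical copies of CYP21A2 are known in primates, so reads of a copy cannot be told from its own here.

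Lung had its own class III genes. AGER (31802772 to 31806258), the receptor for advanced glycation end products and a marker of the flat alveolar cells of lung, had the highest level of the interval, 719 RPKM in lung (712 to 727), against 3.97 RPKM in spleen, 1.80 RPKM in cerebellum, 0.277 RPKM in heart and 0.218 RPKM in kidney. Lung was 399-fold above cerebellum and 181-fold above spleen. Of its 6 transcript models, 5 had between 530 and 719 RPKM in lung, while the longest, which runs on to the end of PBX2 at 31811839, had 184 RPKM in lung and 32.4 RPKM in spleen, and with it the log2 ratio of lung over cerebellum was 4.01 instead of 8.64. NOTCH4, a Notch receptor of endothelial cells, had 17.8 RPKM in lung, between 2.46 and 2.67 RPKM in spleen, kidney and heart, and 0.634 RPKM in cerebellum. The 4 endothelial markers summed to 257 RPKM in lung, 96.1 RPKM in spleen, 42.8 RPKM in kidney, 24.6 RPKM in heart and 3.53 RPKM in cerebellum, and their part in the NOTCH4 difference was not tested. TNXB, a protein of connective tissue matrix, was less particular to lung, with 22.5 RPKM there, 8.35 RPKM in heart, 4.13 RPKM in cerebellum, 3.18 RPKM in spleen and 1.04 RPKM in kidney. It was past 4-fold in lung against cerebellum with a log2 ratio of 2.45, which became 1.87 and 1.97 under the median-of-ratios and TMM scalings.

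SLC44A4, a transporter of epithelial cells, was shared by kidney (19.6 RPKM) and lung (10.6 RPKM), with 1.64 RPKM in spleen, 0.0318 RPKM in heart and no read in cerebellum. Lung was at least 572-fold and spleen at least 88.7-fold above cerebellum. RNF39, a ring finger gene of the class I region, had 3.17 RPKM in lung (185 reads), 8 reads in cerebellum, 2 in spleen and none in kidney or heart. ENSMMUG00000018614 (30506726 to 30507808), which has no symbol, had 154 RPKM in lung (151 to 158) and no read in the other 4 libraries, at least 2983-fold above cerebellum.

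Few members were at least 4-fold higher in cerebellum than in spleen or lung, although 19 of the 110 detected members had their highest level there. The 4 that were at least 4-fold above spleen were DDX39B, PRRT1, ENSMMUG00000015683 and VWA7, and the 5 at least 4-fold above lung were DDX39B, PRRT1, ENSMMUG00000015683, ENSMMUG00000011686 and the small nucleolar RNA SNORD48. The last 2 were named after their values were seen, and SNORD48 is 116 bp long and rested on 14 reads in cerebellum and 3 in lung. PRRT1 (31770684 to 31774247), a membrane protein associated with glutamate receptors at synapses, had 91.3 RPKM in cerebellum (89.5 to 93.1), 4.35 RPKM in kidney, 3.86 RPKM in lung, 1.98 RPKM in spleen and 1.53 RPKM in heart. Cerebellum was 46.1-fold above spleen and 23.6-fold above lung. ENSMMUG00000015683 (31320560 to 31324231) had 4.91 RPKM in cerebellum and at most 0.453 RPKM elsewhere. VWA7 was low throughout, at 1.68 RPKM in cerebellum, 1.40 RPKM in kidney and 0.189 RPKM in spleen. Just short of 4-fold was DDR1, a collagen receptor with 12.9 RPKM in cerebellum and 3.25 RPKM in spleen (3.99-fold), followed by EGFL8 with 21.7 and 6.11 RPKM (a log2 ratio of spleen over cerebellum of -1.83).

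DDX39B, an RNA helicase used in splicing and export of messenger RNA, was the member whose ratio depended most on the transcript chosen. Its identifier carries 4 transcripts. The longest (31164612 to 31181034, 2067 bp of exon) had 45.9 RPKM in spleen, 45.0 RPKM in cerebellum, 37.6 RPKM in lung, 21.1 RPKM in kidney and 15.5 RPKM in heart, and the second (31164662 to 31176568, 1646 bp) was similar, with 51.6, 40.5, 43.0, 24.0 and 18.1 RPKM. The third (31178880 to 31180982, 1314 bp), which represents the gene under the rule, had 247 RPKM in cerebellum, 1.27 RPKM in spleen, 0.889 RPKM in heart, 0.362 RPKM in lung and 0.142 RPKM in kidney. The shortest (31179837 to 31180982, 240 bp) lies within it and had 64.4 RPKM in cerebellum and at most 0.214 RPKM elsewhere. The log2 ratio of spleen over cerebellum was -7.60 with the representing transcript and 0.03 with the longest, and that of lung was -9.41 and -0.26. With the longest transcript, DDX39B is not among the genes lower in spleen or lung.

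**Figure D4:**
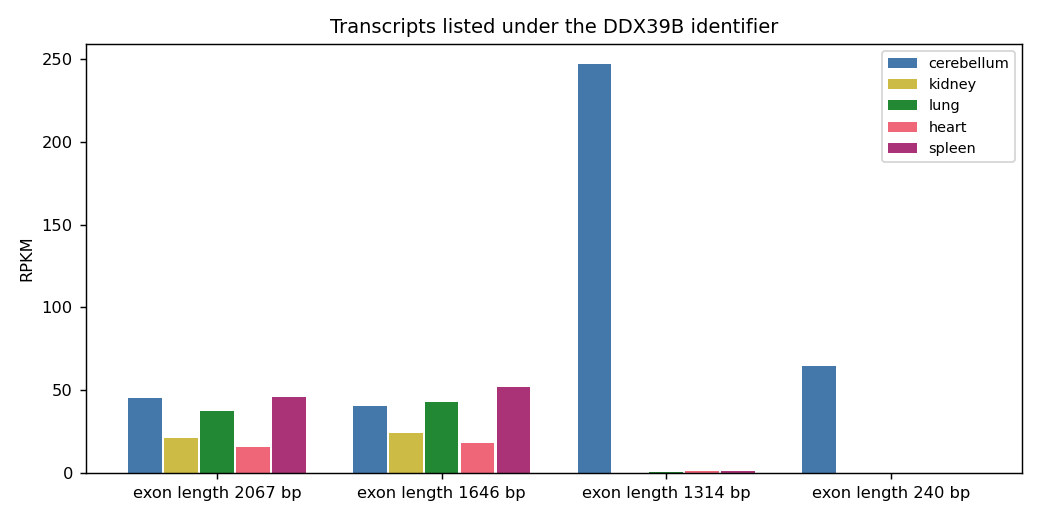
RPKM in the 5 tissues of the 4 transcripts under the DDX39B identifier, ordered from the longest exon length to the shortest. The first 2 are present in every tissue, between 15.5 and 51.6 RPKM, while the last 2 have 247 and 64.4 RPKM in cerebellum and at most 1.27 RPKM elsewhere.

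Transcripts of most other genes gave similar ratios. Of the 78 members with several transcripts, 70 had at least 2 detected ones, and in 12 of these the transcripts differed in the tissue with the highest level. The range of the log2 ratio of spleen over cerebellum among the transcripts of a gene had a median of 0.27. It was under 1 in 57 genes and at least 2 in 4, namely DDX39B (8.78), MAMU-DOA (4.97), CFB (2.90) and a gene without a symbol (2.63). Each of these 4 ranges includes a transcript with fewer than 3 reads in spleen or cerebellum, set to 3 reads, so their exact size depends on that floor. For MAMU-DOA both transcripts had no read in cerebellum, so its range lies between bounds and does not show that they differ. For DDX39B only the 240 bp transcript was at the floor. Its 1314 bp transcript had 112 reads in spleen and 26431 in cerebellum, at a log2 ratio of -7.60.

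Kidney had a pair of genes of its own. APOM (31295224 to 31302250), an apolipoprotein that carries lipids in high-density lipoprotein, had 292 RPKM in kidney (286 to 298), 4.79 RPKM in heart, 4.37 RPKM in cerebellum, 3.42 RPKM in lung and 2.97 RPKM in spleen, so that kidney was 61.0-fold above the next tissue. MCCD1 (31163370 to 31164623), which adjoins DDX39B, had 54.5 RPKM in kidney from 1879 reads, 2 reads in spleen and none in cerebellum, lung or heart.

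Over all 5 tissues, 23 of the 110 detected members (20.9%, against 19.1% of 15688 genes) were at least 4-fold higher in one tissue than in every other. Of these, 11 were spleen genes (10% of the members, against 3.59% of all genes), 7 lung genes (6.36% against 3.38%), 3 cerebellum genes (2.73% against 6.32%) and 2 kidney genes (1.82% against 4.53%), and none was a heart gene (against 1.27%). The named ones were LTA, LTB, CYP21A2, GPSM3, MAMU-DMB and MAMU-DOA in spleen, RNF39, MPIG6B, AGER and NOTCH4 in lung, DDX39B and PRRT1 in cerebellum, and MCCD1 and APOM in kidney.

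**Figure D5:**
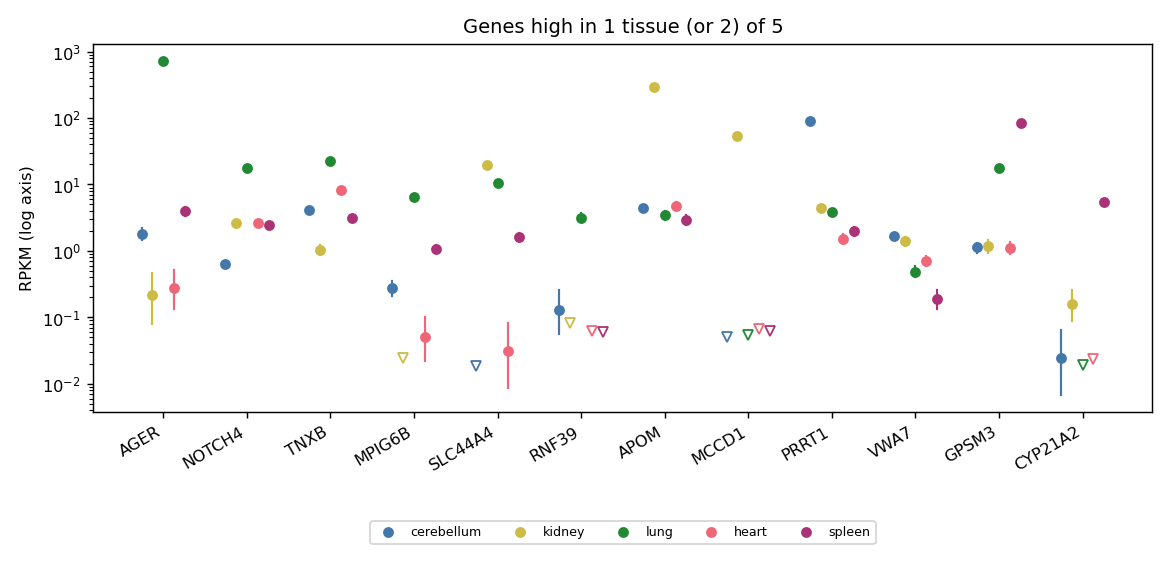
RPKM (log axis) of 12 genes that differ between tissues, with exact Poisson 95% intervals; open triangles mark tissues with fewer than 3 reads, drawn at the value of 3 reads. AGER is at 719 RPKM in lung, APOM and MCCD1 are at 292 and 54.5 RPKM in kidney, and PRRT1 is at 91.3 RPKM in cerebellum, each far above the other tissues.

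Most of the other class I region genes lay within 4-fold between spleen, lung and cerebellum. Of the 22 class I region genes in the interval (39 listed), 18 could be compared between spleen and cerebellum, 2 were at least 4-fold higher in spleen and none lower, with a median log2 ratio of 0.36. Against cerebellum, 3 of 19 were higher in lung and none lower (median 0.50), and between spleen and lung 1 of 19 passed 4-fold, RNF39, which was higher in lung. Over all genes, 22.8% were higher and 12.6% lower in spleen than in cerebellum, and 23.7% higher and 10.7% lower in lung. The share over all genes that was 4-fold higher in lung than in spleen was 10.4%. The 2 higher in spleen were PPP1R18, an actin-binding regulator of protein phosphatase, with 53.1 RPKM in spleen, 15.9 RPKM in lung and between 2.03 and 3.19 RPKM elsewhere, and NRM, a nuclear membrane protein, with 7.20 RPKM in spleen, 4.59 RPKM in lung and 0.889 RPKM in cerebellum. The lung ratio of NRM (2.37) fell to 1.79 and 1.89 under the median-of-ratios and TMM scalings. FLOT1, a membrane scaffold protein, went the other way with 49.7 RPKM in cerebellum, 30.4 RPKM in lung and 20.0 RPKM in spleen, within 4-fold. PPP1R11 had between 18.8 RPKM in heart and 38.6 RPKM in kidney.

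Of the 7 extended class II genes in the interval (20 listed), 6 could be compared and none passed 4-fold in any of the 3 comparisons, with median log2 ratios of 0.09 for spleen over cerebellum, 0.16 for lung over cerebellum and -0.11 for spleen over lung. Over all genes, 22.8% were 4-fold higher and 12.6% lower in spleen than in cerebellum, and 23.7% higher and 10.7% lower in lung. For spleen against lung the shares were 6.29% higher and 10.4% lower. With only 6 genes, an absence of calls says little beside shares of this size. The extended class II genes lie among or beside the class II genes. BRD2, a reader of acetylated histones located between MAMU-DMB and MAMU-DOA, had 53.8 RPKM in lung, 50.8 RPKM in spleen, 31.6 RPKM in cerebellum, 28.5 RPKM in kidney and 11.2 RPKM in heart, next to a MAMU-DOA that was without reads in cerebellum. RING1, a subunit of a Polycomb complex, had 39.7 RPKM in cerebellum, 28.5 RPKM in lung, 24.9 RPKM in spleen, 19.0 RPKM in kidney and 10.2 RPKM in heart, and VPS52, a component of vesicle tethering, ran alongside with 33.4, 23.0, 23.0, 18.8 and 8.92 RPKM. HSD17B8 and SLC39A7 overlap by 3169 bp, and whether strand was used in the counting is not given in the sources used here, so their separate levels are uncertain.

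In all, 37 members were detected in every tissue with less than 4-fold between the highest and lowest (33.6% of those detected, against 24.0% of all detected genes). Among them CSNK2B, the regulatory subunit of casein kinase 2, had 79.0 RPKM in kidney, 69.7 RPKM in spleen, 66.1 RPKM in lung and 37.3 RPKM in heart, with cerebellum (63.2 to 66.9) next to lung. RNF5, a ubiquitin ligase of the endoplasmic reticulum, had 89.5 RPKM in kidney and between 36.8 and 44.3 RPKM in the others, and AGPAT1, an enzyme of phospholipid synthesis, had 72.9 RPKM in kidney and between 23.0 and 41.4 RPKM in the others. RNF5 begins at 31800127 and AGER at 31802772, so that a gene within 4-fold across all tissues and the highest lung gene of the interval lie side by side.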

How the data were processed

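For each of 51763 transcripts, the deposited files gave the read counts per transcript, not normalized, and the RPKM, which the authors had scaled to exon length and properly mapped reads. The authors described alignment of RNA-Seq reads with BWA to rheMac2 and transcripts, keeping uniquely mapped reads, and the submitters' processing notes list TopHat 1.2.0. The counting tool and its use of strand are not given in the sources used here. RPKM recomputed from the counts differed from the deposited values by at most 5.0e-12. Starts are written 1-based on rheMac2. Of 317 interval transcripts with an identifier, 1 represented each gene. 40 without identifiers were set aside. Symbols came from a reference table that matched 15556 of 28633 identifiers, and no genome or sequence was used here. Sequence-similar and overlapping genes (30 members in 17 overlapping pairs) can share or lose reads, and transcripts of a gene share reads.

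Ratios were of deposited RPKM, among genes with at least 1 RPKM in either tissue. A tissue under 3 reads was set to the value of 3 reads, and 4-fold was the threshold. With 1 library per tissue, no p-values were computed. Groups followed the tissue labels. The genes named were members of the role lists, the 8 with the highest level, the 8 with the highest spleen and lung ratios to cerebellum and the 6 with the lowest spleen ratio, with at most 2 identifiers per direction for genes without a symbol. MCCD1, ENSMMUG00000011686 and SNORD48 fall outside these rules and were named after their values were seen. The members and lists were chosen with earlier results of these data known. Alternatives were other scalings, representing transcripts, interval rules, filters and thresholds. One listed marker gene is not reported here. The rule for ratios was tested on simulated data. Python 3.11.15, numpy 2.4.6, pandas 2.3.3, scipy 1.17.1, matplotlib 3.10.9, R 4.3.3 and edgeR 4.0.16 (for TMM factors) were used.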

Additional observations from a re-analysis of the deposited data

Results flagged for a closer look

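Of 40 transcripts in the interval without a gene identifier, which enter none of the comparisons above, 32 reached 1 RPKM in some tissue, with the highest level in spleen for 16, in lung for 10, in kidney for 5 and in cerebellum for 1. Over all detected genes the shares were 34.2% (spleen), 21.6% (lung), 18.7% (kidney) and 20.1% (cerebellum). These counts used deposited RPKM, and such counts depend on the scaling. The transcripts with at least 40 RPKM, a level chosen after the values were seen, number 3, and all lie before MIC1 on the chromosome. The transcript at 31085985 to 31088842 on chromosome 4 had 154 RPKM in spleen, 56.7 RPKM in lung, 23.2 RPKM in kidney, 13.0 RPKM in heart and 1.86 RPKM in cerebellum. The transcript at 31085865 to 31089356, which spans the first, had 68.0, 24.6, 8.68, 5.47 and 0.736 RPKM in the same order. The transcript at 30982824 to 30983163 (171 bp of exon) had 87.4 RPKM in spleen and 47.1 RPKM in lung, 1.21 RPKM in kidney, and 3 and 2 reads in heart and cerebellum.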

How the results depend on the processing

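No paired analysis was possible because each tissue has 1 library. Of 214 counts and medians recomputed under an alternative, 184 stayed within the limits set for them and 30 moved. The 58 named comparisons recomputed were those already past 4-fold in deposited RPKM. Of their 290 recomputed ratios, 278 kept their side of 4-fold, 11 fell below it and 1 reversed. Each scaling moved all ratios of a comparison by the same amount, so ratios far past 4-fold were bound to keep their side under it. The reversed ratio was that of DDX39B for spleen over cerebellum, 0.0279 on the log2 scale with the longest transcript. Under the upper quartile, median-of-ratios and TMM scalings, members lower in spleen than cerebellum were 8, 8 and 8 and the median log2 ratio 0.23, 0.067 and 0.16. Members lower in lung than cerebellum were 8, 9 and 9, with a median of 0.089 and 0.21 under the last 2, and the median of spleen over lung was 0.039 under the upper quartile. Members with their highest level in heart were 8, 18 and 15 under these scalings, and in lung 14 under median of ratios. At 2-fold, 46 members were higher and 9 lower in spleen than cerebellum, 9 were lower in lung than cerebellum, and 29 were higher in spleen than lung. With 5 RPKM required, 2 were lower in spleen and 2 in lung than cerebellum, and 47 were detected in cerebellum, 53 in kidney and 35 in heart. Without the filter 9 were lower in lung than cerebellum. On log2(RPKM + 1), 3 were lower in lung than cerebellum and 9 higher in spleen than lung. Adding the transcripts without identifiers gave 55 higher in lung than cerebellum and 19 lower in spleen than lung. Leaving out overlapping members or those under 200 bp, both added after seeing the data, is included in these counts. Depth limits ratios against cerebellum for genes under 3 reads there.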
